A study of Mus musculus with 12 samples.

Results

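The smooth muscle actins and the SRF-regulated cytoskeleton genes described here are Acta2, Actg2, Tagln, Cnn1, Cnn2, Tpm1, Tpm2, Myl9, Vcl and Srf. They were chosen by name, as every probe set annotated to 1 of these 10 genes by its symbol or an older synonym. The search found 9 of the 10 genes, among 8251 genes named on the array, through 11 of its 12488 probe sets; Srf itself was not analysed here. The study measured total RNA of mouse embryonic fibroblasts (MEFs) on 12 Affymetrix arrays, 3 for each of 4 cell lines. All 4 lines were KSR1 -/- on a DBA background and all carried green fluorescent protein (GFP). One line carried KSR1, H-RasV12 and GFP and is called the double line, one carried KSR1 and GFP, one carried H-RasV12 and GFP, and one carried GFP alone. KSR1 is a scaffold that holds Raf, MEK and ERK kinases together, and H-RasV12 is an oncogenic Ras that signals to them continuously. Each condition is therefore 1 line measured in triplicate, and the labels do not say whether the arrays came from separate cultures. The p-values measure the spread between arrays of 1 line, which may be technical. The effect of a transgene cannot be told apart from any other difference between the lines. Wording such as KSR1 lowered a gene therefore means that the line carrying KSR1 read lower.

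Serum response factor (SRF) is a transcription factor that binds the CArG box, a pair of C followed by a run of A or T and a pair of G. Its partners of the MRTF family sense the pool of unpolymerised actin and switch on actin, calponin, tropomyosin and myosin light chain genes, whereas partners of the ternary complex family respond to ERK and switch on immediate early genes. In fibroblasts, smooth muscle alpha-actin is the usual marker of the contractile state called the myofibroblast.

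Across the 4 lines the smooth muscle genes Acta2, Actg2, Tagln and Myl9 were highest with GFP alone, and KSR1 alone lowered all 4. The double-line arrays were the lowest for Acta2 and Actg2, whereas for Tagln and Myl9 they overlapped those of the KSR1 line. Cnn2 was called lower in the double line against each of the other lines, and no comparison called Tpm1 or Vcl. Levels are MAS5 signals, a probe set's linear intensity. Fold changes are differences of log2(signal + 23) ± SE from 1 limma fit of all 12 arrays, with 95% intervals where given. On this scale the change of a dim gene comes out too small. Tests covered the probe sets above 181.4 on 3 or more arrays, and a probe set was called at a Benjamini-Hochberg adjusted p under 0.05 over the 6897 probe sets tested.

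Pairs of arrays had r of 0.911 to 0.965 within a line and 0.808 to 0.956 between lines. The beta-actin 3′ control read 8629 on double-line replicate 1 and 7981 on GFP replicate 1, against 16680 to 26873 on the other 10 arrays. The Ksr1 probe set 92765_s_at read 301, 262 and 141 in the double line, 933, 1605 and 207 in the KSR1 line, 20.2, 32.2 and 14.2 in the H-RasV12 line, and 144, 21.1 and 37.5 in the GFP line. The lowest KSR1 array thus read less than 2 of the 3 double-line arrays, and GFP replicate 1 (144) read above double-line replicate 3 (141). Another Ksr1 probe set, 92764_at, read 294, 324 and 265 in the double line and 266, 366 and 216 in the KSR1 line. It read 188, 231 and 180 in the H-RasV12 line and 324, 225 and 232 in the GFP line. On 92764_at both KSR1-carrying lines thus overlapped the GFP line. Fibroblast markers were present: 8 of 10 passed the filter, while the Vim and Thy1 probe sets did not (group means of 73.6 to 90.7 and 11.0 to 27.2). Their summed signal ran from 19865 to 31223 in the double line, 37662 to 38715 in the KSR1 line, 48547 to 68249 in the H-RasV12 line and 48328 to 63461 in the GFP line. This sum was lower in both KSR1-carrying lines, and its part in the results below was not tested. Not every marker fell. Col1a1, Col1a2, Col3a1, Pdgfrb and Fn1 averaged lower in the KSR1 line than in the GFP line, whereas Dcn, Pdgfra and S100a4 averaged higher. KSR1 against GFP lowered 2 of the 8 tested, Col1a2 and Col3a1, and raised 0, beside 6.81% called lower and 4.97% higher over all. Markers of differentiated smooth muscle were near the floor, with 1 of 4 measured markers past the filter (Smtn) and Myh11 at 15.6, 22.7, 6.55 and 20.8 on average in the double, KSR1, H-RasV12 and GFP lines. The filter passed 3 of 9 skeletal muscle markers, 2 of 6 cardiac, 1 of 6 endothelial, 1 of 6 epithelial and 0 of 6 leukocyte markers. Fewer cells of a type and less RNA per cell cannot be told apart in such bulk samples.

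Promoters are shown because the members are grouped by their link to SRF. Each is the 250 bases before a gene's start, in the gene's direction, taken from the RefSeq promoter table on GRCm38.p6. The table held 8 of the 10 members; Tagln and Actg2 were not among them. Capitals mark a CArG box, or, in Acta2, a match with 1 G or C inside the A and T run (Myl9 holds such a match too, left in lower case). Myl9 lies at chr2:156775214-156775463 on the plus strand, Cnn2 at chr10:79988350-79988599 (plus), Vcl at chr14:20929148-20929397 (plus) and Acta2 at chr19:34255374-34255623 (minus).
Myl9: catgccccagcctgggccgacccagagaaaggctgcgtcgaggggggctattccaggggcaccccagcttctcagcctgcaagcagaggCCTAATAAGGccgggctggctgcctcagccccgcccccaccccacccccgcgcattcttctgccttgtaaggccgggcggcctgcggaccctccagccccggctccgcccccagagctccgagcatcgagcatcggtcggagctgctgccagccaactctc
Cnn2: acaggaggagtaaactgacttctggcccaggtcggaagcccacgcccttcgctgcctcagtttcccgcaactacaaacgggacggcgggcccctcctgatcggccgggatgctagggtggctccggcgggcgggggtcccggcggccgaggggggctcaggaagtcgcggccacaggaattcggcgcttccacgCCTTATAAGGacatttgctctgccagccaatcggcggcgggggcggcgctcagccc
Vcl: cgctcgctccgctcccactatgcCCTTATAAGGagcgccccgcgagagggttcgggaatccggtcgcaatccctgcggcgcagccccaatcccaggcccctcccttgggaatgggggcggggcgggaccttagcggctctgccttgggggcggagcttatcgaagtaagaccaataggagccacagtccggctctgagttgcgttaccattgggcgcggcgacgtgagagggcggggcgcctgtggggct
Acta2: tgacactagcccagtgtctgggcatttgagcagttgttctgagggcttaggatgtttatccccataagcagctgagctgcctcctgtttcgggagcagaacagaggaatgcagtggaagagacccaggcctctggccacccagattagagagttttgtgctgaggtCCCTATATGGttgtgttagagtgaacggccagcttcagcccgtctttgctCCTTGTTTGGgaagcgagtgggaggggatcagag
The box begins 161 bases before the start of Myl9, 56 before Cnn2 and 227 before Vcl. The Acta2 matches begin 84 and 34 bases before its start. The Srf window held 2 exact boxes, at 82 and 62 bases, and the windows of Tpm1, Tpm2 and Cnn1 held none in these letters. The box reads the same on both strands, and 1.47% of all 32851 windows in the table held an exact one; 8.59% held one with at most 1 such change. A match is a stretch of letters, not a measured site.

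Acta2, smooth muscle alpha-actin, had a different range of signals in each line. Its probe set 93100_at read 709, 616 and 843 in the double line, 886, 1210.2 and 1540.5 in the KSR1 line, 3066, 1542 and 3041 in the H-RasV12 line, and 3470.4, 8063 and 9061 in the GFP line. No array of one line overlapped those of another, although the highest KSR1 array and the lowest H-RasV12 array were almost equal. KSR1 lowered Acta2 by a factor of 5.27 against GFP (-2.40 ± 0.35, limma adjusted p = 0.000311) and by 3.32 in the presence of H-RasV12 (double line against H-RasV12, -1.73 ± 0.35, limma adjusted p = 0.00317). The double line stood 8.59 times below GFP (-3.10 ± 0.35, limma adjusted p = 2.47e-05). H-RasV12 against GFP did not pass (-1.37 ± 0.35, limma adjusted p = 0.236), and neither did the double line against KSR1 (-0.70 ± 0.35, interval -1.45 to 0.04, limma adjusted p = 0.207). Without GFP replicate 1, the lowest GFP array and 1 of the 2 with a dim beta-actin control, H-RasV12 against GFP was called for Acta2 (-1.80, limma adjusted p = 0.0206).

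Actg2, smooth muscle gamma-actin, was the one member that H-RasV12 alone lowered past the threshold. Its probe set 93102_f_at read 499, 702 and 529 in the double line, 899, 1107 and 882 in the KSR1 line, 1011, 974 and 1359 in the H-RasV12 line, and 2401, 3599 and 4563 in the GFP line. All 9 arrays with a transgene besides GFP lay below all 3 GFP arrays, all double-line arrays lay lowest, and the KSR1 and H-RasV12 lines overlapped. The change was -1.61 ± 0.23 with H-RasV12 against GFP (3.05 times lower, limma adjusted p = 0.0228) and -1.81 ± 0.23 with KSR1 against GFP (3.5 times lower, limma adjusted p = 0.000133). The double line fell further below GFP (-2.53 ± 0.23, 5.78 times, limma adjusted p = 5.41e-06) and below H-RasV12 (-0.92 ± 0.23, 1.90 times, limma adjusted p = 0.0149). Against KSR1 it missed the threshold at -0.72 ± 0.23 (limma adjusted p = 0.0516), and passed it without GFP replicate 1, GFP replicate 3 or double-line replicate 2. It also passed with the array number as a replicate block (limma adjusted p = 0.0282). The H-RasV12 call was lost when GFP replicate 2 (limma adjusted p = 0.139), GFP replicate 3 (0.140) or H-RasV12 replicate 2 (0.121) was left out, and the call against H-RasV12 without H-RasV12 replicate 3 (limma adjusted p = 0.0745). The suffix of this probe set marks probes shared within a gene family, and actin genes are nearly identical in their coding sequence, so its signal cannot be assigned to Actg2 with certainty.

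**Figure D1:**
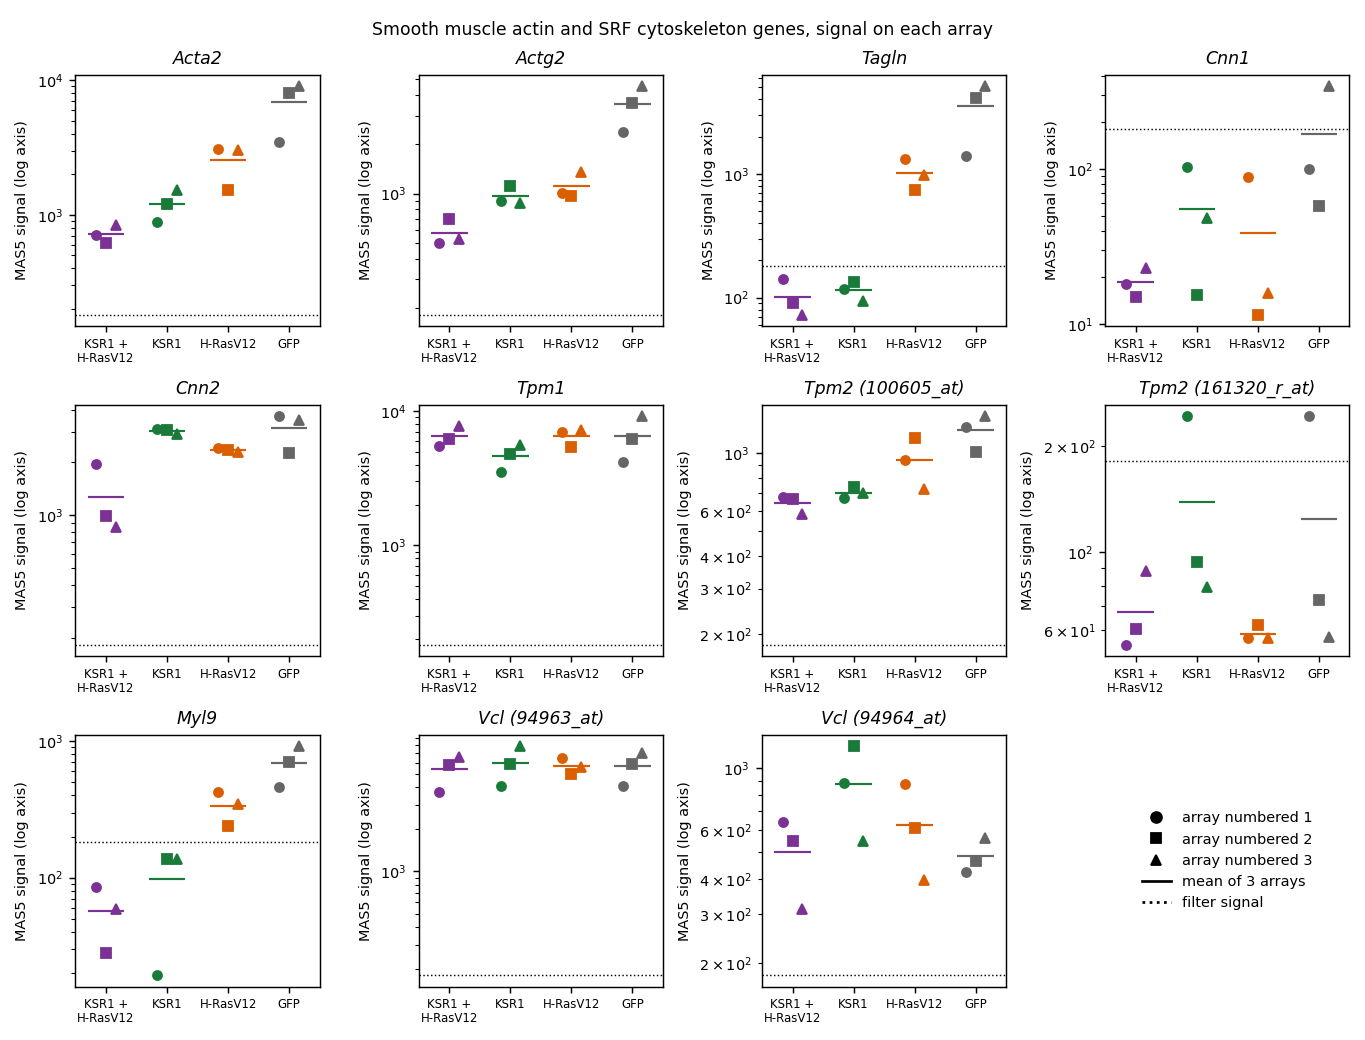
MAS5 signal of each of the 11 probe sets (log axis) on every array, with the double line, KSR1, H-RasV12 and GFP from left to right, symbols for the array number, solid lines for the mean of 3 arrays and a dotted line at the filter signal of 181.4. Acta2, Actg2, Tagln and Myl9 are lower in the double and KSR1 lines than in the GFP line, with overlapping double and KSR1 arrays for Tagln and Myl9, Cnn2 is lowest in the double line, and the 4 lines overlap for Tpm1 and Vcl 94963_at.

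Tagln encodes transgelin (SM22-alpha), an actin-binding protein of smooth muscle and myofibroblasts, and it had the widest range of group means of the tested members, 4.68 on the log2 scale. Its signal on 93541_at was 143, 90.6 and 72.8 in the double line, 116, 135 and 94.3 in the KSR1 line, 1315, 738 and 982 in the H-RasV12 line, and 1399, 4092 and 5142 in the GFP line. All 6 arrays with KSR1 lay below the filter signal and overlapped between the double and KSR1 lines, whereas all 6 arrays without KSR1 lay well above it. Tagln thus passed the filter only through the lines where it was high. KSR1 lowered it by a factor of 22.7 against GFP (-4.51 ± 0.39, limma adjusted p = 4.52e-06), and in the presence of H-RasV12 by 8.28 (-3.05 ± 0.39, limma adjusted p = 8.5e-05). The double line lay 25.6 times below GFP (-4.68 ± 0.39, limma adjusted p = 1.76e-06). With a pseudocount of 115 these falls came to 14.0, 5.12 and 15.0 times, and without both dim arrays the last was 44.2 times, all still called. KSR1 replicate 3, the KSR1 array with the least Ksr1 signal, had a Tagln signal of 94.3, the lowest of its line. On that array Actg2 (882) also read lowest of the KSR1 line, whereas Acta2 (1540.5) and Myl9 (137) read highest. A link between these signals and the Ksr1 signal was not tested. Once KSR1 was present, adding H-RasV12 gave no detectable difference (interval -1.0 to 0.66), and quantile normalization turned its sign. H-RasV12 against GFP gave -1.63 ± 0.39 (limma adjusted p = 0.216), and -2.19 without GFP replicate 1 (limma adjusted p = 0.00244).

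The calponins bind actin and dampen myosin activity. Cnn1, the smooth muscle form, was dim: 99942_s_at read 18.1, 14.9 and 22.8 in the double line, 102, 15.3 and 47.9 in the KSR1 line, 89.2, 11.5 and 15.7 in the H-RasV12 line, and 99.3, 58.0 and 343 in the GFP line. It exceeded the filter signal on GFP replicate 3 alone, was not tested in the filtered fit, and was not called in the fit without a filter. Cnn2, the more widely expressed form, had another pattern. Its probe set 94004_at read 1972, 995 and 858 in the double line, 3110.3, 3060.0 and 2907 in the KSR1 line, 2431, 2358 and 2298 in the H-RasV12 line, and 3675, 2254 and 3507 in the GFP line. The 3 double-line arrays were the lowest of all 12, and the GFP line spanned the values of both single-transgene lines. The double line was 2.51 times below KSR1 (-1.33 ± 0.27, limma adjusted p = 0.00315), 1.96 times below H-RasV12 (-0.97 ± 0.27, limma adjusted p = 0.0224) and 2.55 times below GFP (-1.35 ± 0.27, limma adjusted p = 0.00263). KSR1 against GFP had an interval of -0.59 to 0.54 for Cnn2, with a sign that turned under quantile normalization. The call against H-RasV12 was lost without any 1 of the 3 H-RasV12 arrays or without double-line replicate 2 or 3, at limma adjusted p between 0.0553 and 0.0998.

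The tropomyosins, coiled-coil proteins that lie along actin filaments, split. Tpm2 (100605_at) read 676, 666 and 582 in the double line, 670.1, 739 and 704 in the KSR1 line, 945, 1147 and 727 in the H-RasV12 line, and 1272, 1017 and 1394 in the GFP line. Both KSR1-carrying lines lay below every GFP array, and the H-RasV12 line overlapped the GFP line and the KSR1 line. The falls were small: -0.77 ± 0.19 with KSR1 against GFP (1.71 times lower, limma adjusted p = 0.0162) and -0.90 ± 0.19 with both against GFP (1.87 times lower, limma adjusted p = 0.00452). The KSR1 call was lost without GFP replicate 3 (limma adjusted p = 0.0881) or KSR1 replicate 1 (0.0540). The double line against H-RasV12 gave -0.51 ± 0.19 (limma adjusted p = 0.0910), called without H-RasV12 replicate 3 (limma adjusted p = 0.0428). A second Tpm2 probe set of relaxed design, 161320_r_at, read 54.4 to 88.0 in the double line, 79.3 to 243 in the KSR1 line, 56.9 to 61.9 in the H-RasV12 line and 57.2 to 242 in the GFP line. It was below the filter and did not follow the first, with r = 0.04 over 12 arrays. Tpm1 (160532_at) read 5468, 6228 and 7734 in the double line, 3548, 4780.4 and 5636 in the KSR1 line, 7019, 5416 and 7284 in the H-RasV12 line, and 4168, 6191 and 9174 in the GFP line. All 4 lines overlapped, and the intervals of its 5 fold changes lay between -1.0 and 1.05.

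Myl9, the regulatory light chain through which myosin II is switched on, followed Tagln. Its probe set 96939_at read 85.0, 28.1 and 58.4 in the double line, 19.3, 136 and 137 in the KSR1 line, 426, 237 and 348 in the H-RasV12 line, and 460.4, 709 and 916 in the GFP line. All 6 arrays with KSR1 were below the filter signal and all 6 without it were above, so Myl9 too was tested only through the lines where it was high. KSR1 lowered it 6.75 times against GFP (-2.75 ± 0.47, limma adjusted p = 0.00122), and 4.59 times in the presence of H-RasV12 (-2.20 ± 0.47, limma adjusted p = 0.00479). The double line stood 9.04 times below GFP (-3.18 ± 0.47, limma adjusted p = 0.000269). KSR1 replicate 1, at 19.3, read far below the other 2 arrays of its line; without it the fall with KSR1 against GFP was 4.33 times (-2.12, limma adjusted p = 0.00203). With a pseudocount of 115 the 3 falls came to 3.86, 2.61 and 4.62 times, all still called. The double line against KSR1 gave -0.42 ± 0.47 (limma adjusted p = 0.617), and -1.31 with replicates 2 and 3 alone (limma adjusted p = 0.0169). For H-RasV12 against GFP the estimate of -0.98 ± 0.47 was not called (limma adjusted p = 0.861), although the arrays of these lines did not overlap.

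Vcl encodes vinculin, which couples actin filaments to adhesion sites. The probe set 94963_at read 3705, 5739 and 6621 in the double line, 4106, 5824 and 7837 in the KSR1 line, 6424, 4999 and 5622 in the H-RasV12 line, and 4109.9, 5901 and 6978 in the GFP line. These 4 lines overlapped throughout, and its 5 intervals lay between -0.72 and 0.63. The other probe set, 94964_at, read 639, 549.7 and 314 in the double line, 887, 1195 and 549 in the KSR1 line, 874, 611 and 396 in the H-RasV12 line, and 424, 465 and 559.5 in the GFP line. It was not called either, with limma adjusted p of 0.139 or more. Its interval lay above 0 with KSR1 against GFP (0.08 to 1.47) and below 0 in the double line against KSR1 (-1.47 to -0.07). Between both probe sets, r was -0.14 over 12 arrays.

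KSR1 without H-RasV12 lowered 5 of the 9 tested member probe sets against GFP, namely Acta2, Actg2, Tagln, Myl9 and Tpm2, and raised 0; Tagln and Myl9 were tested only through the lines where they were high. Over all probe sets tested, 6.81% were called lower and 4.97% higher in this comparison. With H-RasV12 present in both lines, KSR1 again lowered 5 (Acta2, Actg2, Tagln, Cnn2 and Myl9) and raised 0, beside 7.71% called lower and 7.10% higher over all. Both transgenes against GFP lowered 6, these 5 and Tpm2, and raised 0, beside 7.93% lower and 7.71% higher. These comparisons share lines, so their counts are not independent of each other. The median over the 11 member probe sets in the fit without a filter was -0.77 for KSR1 against GFP, -0.51 for the double line against H-RasV12 and -1.35 for the double line against GFP, beside medians of 0.07, -0.03 and -0.04 over all 12422 probe sets that are not controls.

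Few members were called for H-RasV12, without KSR1 or with it. Against GFP it lowered 1, Actg2, and raised 0, in a comparison where 5 probe sets or 0.0725% of those tested were called lower. Against KSR1, the double line lowered 1, Cnn2, and raised 0, beside 6.92% lower and 8.16% higher over all. At an unadjusted p under 0.05 the counts of members were 3 with H-RasV12 against GFP, beside 5.96% of all probe sets tested, and 3 in the double line against KSR1, beside 27.4%. The same count was 6 with KSR1 against GFP, 6 in the double line against H-RasV12 and 6 in the double line against GFP. The shares over all were 24.9%, 26.6% and 26.8%. These counts take either direction: the 6 with KSR1 against GFP include Vcl 94964_at, which was higher (0.77 ± 0.33). The members' medians were -0.64 and -0.70, beside -0.01 and -0.11 over all probe sets, and 8 and 10 of the 11 estimates were below 0.

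**Figure D2:**
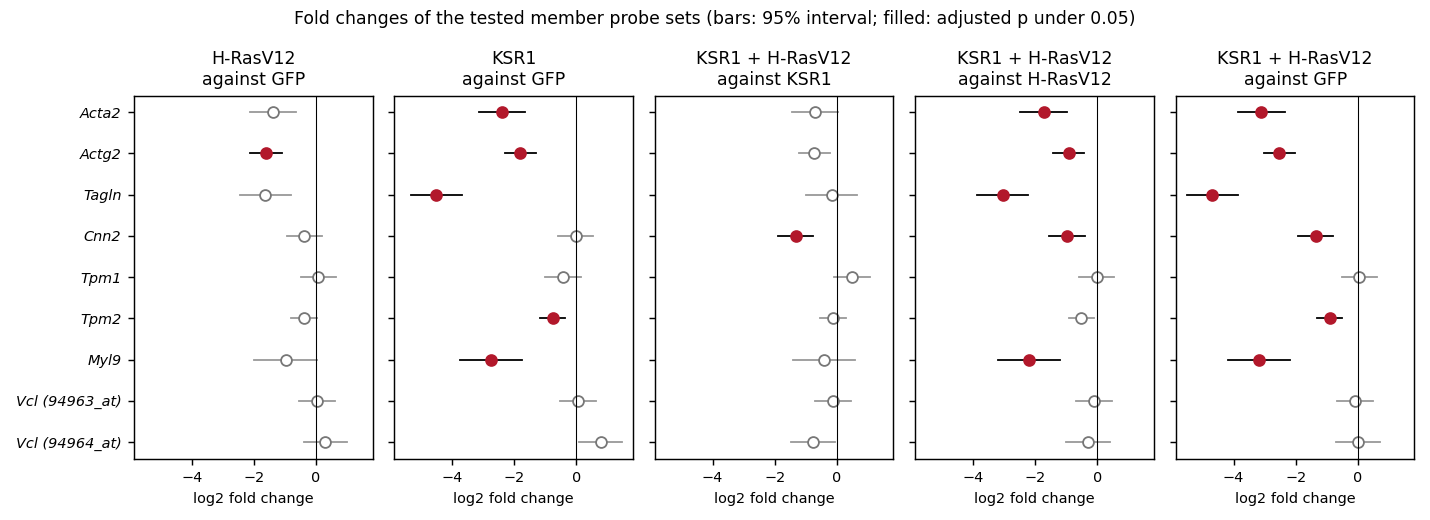
Log2 fold changes of the 9 tested member probe sets in 5 comparisons, each with its 95% interval; filled points have an adjusted p under 0.05. KSR1 shifts Acta2, Actg2, Tagln and Myl9 to the left with and without H-RasV12, and Cnn2 is filled in the 3 panels with the double line. The intervals of Tpm1 and Vcl 94963_at include 0 in all 5. The unfilled Vcl 94964_at interval lies above 0 with KSR1 against GFP and below 0 in the double line against KSR1.

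The interaction compared differences between lines: the double line against the KSR1 line, minus the H-RasV12 line against the GFP line. It called 0 members by limma, while 7.70% of all tested probe sets were called in either direction, and 4 members had an unadjusted p under 0.05, beside 20.5% of all probe sets tested. The estimates were 1.46 ± 0.55 for Tagln, 0.88 ± 0.33 for Actg2 (limma adjusted p = 0.140 for both) and -0.95 ± 0.38 for Cnn2 (limma adjusted p = 0.160). Vcl 94964_at, also among the 4, gave -1.07 ± 0.46 (limma adjusted p = 0.199). Acta2, not among them, gave 0.67 ± 0.49. Every Tagln array with KSR1 lay below the filter signal, which limits the further fall with H-RasV12 that its interaction could measure. The interaction calls depended on single arrays. Without GFP replicate 1 the fit called Actg2 and Tagln, and without double-line replicate 1 it called Cnn2. Without both of these dim arrays it called Actg2, Tagln and Cnn2, in a fit that called 11.3% of all probe sets for the interaction. Leaving out both also raised the H-RasV12 against GFP count of members called lower to 3 (Acta2, Actg2 and Tagln), while 23 probe sets or 0.333% of all were then called lower. GFP replicate 1 held the lowest GFP signal for Acta2, Actg2, Tagln, Myl9, Tpm1 and both Vcl probe sets, and the highest for Cnn2. The falls of Acta2, Actg2, Tagln and Myl9 with KSR1 against GFP were called with and without it.

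**Figure D3:**
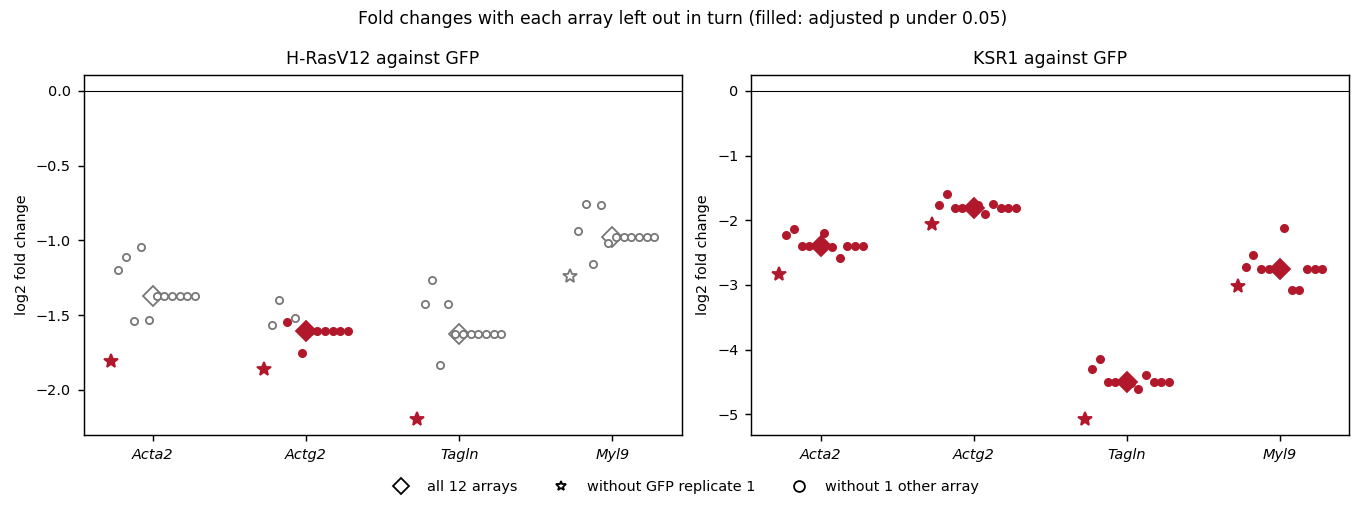
Log2 fold changes of Acta2, Actg2, Tagln and Myl9 for H-RasV12 against GFP (left) and KSR1 against GFP (right), from all 12 arrays (diamonds), without GFP replicate 1 (stars) and without each other array (circles); filled symbols have an adjusted p under 0.05. On the left 3 genes are called without GFP replicate 1, against 1 from all arrays, while on the right every symbol is filled.

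Over the 12 arrays, Acta2 correlated with Tagln (r = 0.95), Myl9 (0.94) and Actg2 (0.93), and Tagln with Myl9 (0.93) and Tpm2 100605_at (0.86). With the group means removed, the first 4 of these pairs gave r = 0.71, 0.71, 0.59 and 0.45, and Tagln with Tpm2 gave -0.06. Tpm1 correlated with Vcl 94963_at at 0.67 and with Acta2 at 0.39, and with the group means removed these were 0.88 and 0.89. These are descriptions over arrays that share 4 lines and their array quality. The genes most like Tagln in pattern were Ndn (r = 0.970), Sfrp2 (0.965), Ski (0.963), Npr3 (0.960) and Postn (0.959). All of these but Ski averaged below the filter signal in both KSR1-carrying lines, as Tagln did. Postn, the matricellular protein periostin, averaged 20.9 ± 17.2 in the double line, 15.7 ± 12.6 in the KSR1 line, 1279 ± 168 in the H-RasV12 line and 2569 ± 1027 in the GFP line (SD, n = 3 each). For the mean of the standardized members, the most alike were Ccn3 (0.952), Ptx3 (0.934), Ski (0.934), Rsu1 (0.931) and App (0.917).

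Other SRF-regulated cytoskeleton genes moved in part. Of 34 listed, 29 had a probe set and 24 were tested. KSR1 against GFP lowered 5 of these and raised 1, beside 6.81% lower and 4.97% higher over all probe sets tested. The largest were Ankrd1, a muscle ankyrin repeat protein (5.84 ± 0.47, limma adjusted p = 2.87e-06), the LIM-domain genes Fhl1 (-4.55 ± 0.52, limma adjusted p = 4.36e-05) and Csrp2 (-2.87 ± 0.31, limma adjusted p = 2.84e-05), and Lima1, which bundles actin (-1.60 ± 0.21, limma adjusted p = 0.000164). Ankrd1 thus went against the smooth muscle actins, at 1567 ± 1188 in the double line, 2745 ± 378 in the KSR1 line, 27.5 ± 11.3 in the H-RasV12 line and 25.4 ± 7.39 in the GFP line (SD, n = 3 each). Ankrd1 read 15.6 to 38.1 in the H-RasV12 line and 17.7 to 32.4 in the GFP line. Fhl1 read 97.6 to 121 in the double line and 20.9 to 48.7 in the KSR1 line. Ankrd1 and Fhl1 thus passed the filter only through the lines where they were high. The double line lowered 3 and raised 1 against KSR1, beside 6.92% lower and 8.16% higher over all. It lowered 5 and raised 1 against H-RasV12, beside 7.71% lower and 7.10% higher. Against GFP it lowered 10 and raised 1, beside 7.93% lower and 7.71% higher. Ccn2, a secreted matricellular factor, averaged 15.4 ± 14.9 in the double line and 323 ± 148 in the KSR1 line (SD, n = 3 each), a fall of -3.16 ± 0.47 (limma adjusted p = 0.000349). Its double-line arrays read 3.97 to 32.2, below the filter signal, so Ccn2 too was tested only through the lines where it was high. H-RasV12 against GFP called 0 of the 24 by limma, with 6 at an unadjusted p under 0.05, where 5.96% of all probe sets had one. Without the 2 dim arrays, 3 were lower and 0 higher with H-RasV12 against GFP, beside 0.333% of all probe sets lower. In that fit 8 were lower and 1 higher with KSR1 against GFP, beside 7.41% lower over all. In the double line against H-RasV12, 8 were lower and 1 higher, beside 10.0% lower. The share called higher over all was not computed for the fit without the 2 dim arrays.

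Of the 7 tested immediate early genes, which also carry serum response elements, KSR1 against GFP raised 1, Junb (1.04 ± 0.22, limma adjusted p = 0.00570). In this comparison 0 were lower, and over all probe sets tested 6.81% were lower and 4.97% higher. The double line lowered 2 and raised 1 against each of the other lines. Over all, 6.92% were lower and 8.16% higher against KSR1, 7.71% and 7.10% against H-RasV12, and 7.93% and 7.71% against GFP. Egr1 fell against all 3 (against H-RasV12 -1.91 ± 0.38, limma adjusted p = 0.00279), and Mcl1 rose against all 3. H-RasV12 against GFP called 0 by limma, with 2 at an unadjusted p under 0.05 (5.96% over all). Leaving out the 2 dim arrays raised the number lowered by the double line to 4 against H-RasV12 (10.0% lower over all) and 4 against GFP (7.80%), with 1 higher in each. KSR1 against GFP then lowered 1 (7.41%) and raised 1. For this fit the share called higher over all was not computed, so the raised counts stand without one.

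Among 11 tested genes of TGF-beta signalling and myofibroblast matrix, KSR1 against GFP lowered 4 and raised 0, beside 6.81% lower and 4.97% higher over all. The 4 were Postn (-6.03 ± 0.37, limma adjusted p = 2.31e-07), the collagens Col3a1 (-1.79 ± 0.28, limma adjusted p = 0.000591) and Col1a2 (-1.27 ± 0.18, limma adjusted p = 0.000263), and the collagen crosslinker Lox (-1.63 ± 0.35, limma adjusted p = 0.00733). Postn read 2.66 to 36.7 in the double line and 1.34 to 24.5 in the KSR1 line. It too was tested only through the lines where it was high. The double line lowered 1 against KSR1, Col1a1 (-2.83 ± 0.73, limma adjusted p = 0.0172), 5 against H-RasV12 and 5 against GFP, and raised 0 in each. The shares lower over all were 6.92%, 7.71% and 7.93%, and those higher were 8.16%, 7.10% and 7.71%. H-RasV12 against GFP called 0 by limma, with 2 at an unadjusted p under 0.05 (5.96% over all), and called 1, Lox, lower without the 2 dim arrays (0.333% over all). Col1a1, Col1a2 and Col3a1 are also on the fibroblast marker list. For KSR1 against GFP the medians of the cytoskeleton, immediate early and matrix lists were 0.02, 0.25 and -0.28 in the fit without a filter, beside 0.07 over all probe sets.

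**Figure D4:**
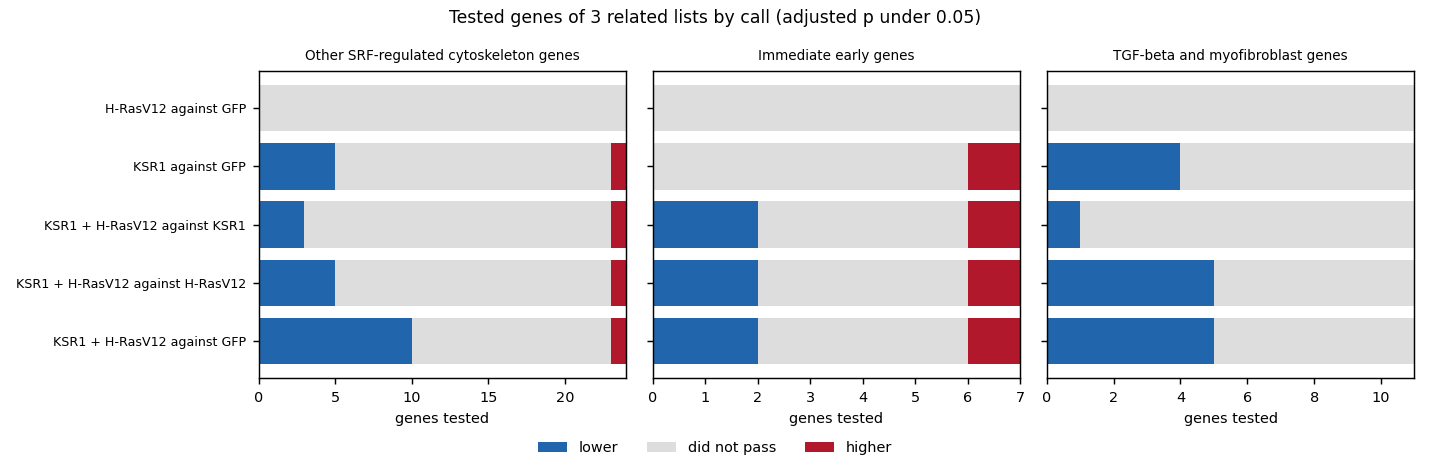
Tested genes of the 3 related lists that were lower (blue), not past the threshold (grey) or higher (red) in each comparison, with the number of genes on the horizontal axis. H-RasV12 against GFP calls 0 in every list, and the cytoskeleton list has 10 of 24 genes lower in the double line against GFP, beside 7.93% of all probe sets tested.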

How the data were processed

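Labelled cRNA from total RNA was read on 12 arrays (1-cycle kit, per the labels' protocols). The deposited values are MAS5 intensity values on a linear scale, per the submitters' processing notes; the MAS5 version is not given in the sources used here. The deposited arrays share 1 trimmed mean, so no further scaling was applied. Probe sets were named from the platform annotation and the current symbol looked up by gene ID in the GRCm38.p6 gene table: 10833 of 12422 probe sets that are not controls had 1 symbol, 396 several and 1193 none given. Signals plus a pseudocount of 23 (their 20th percentile, rounded) were log2-transformed. One fit with limma 3.58.1 in R 4.3.3 held 4 group means with 8 residual degrees of freedom, an intensity trend and two-sided tests. A probe set needed a signal above 181.4 (the median signal overall) on 3 or more arrays; this kept 6897 and left 5525 out, among them 2 of the 11 member probe sets, which were read from a fit without a filter. Called means a Benjamini-Hochberg adjusted p under 0.05 over all tested probe sets. Samples were grouped by their titles. No probe set's level was set against another's. The number of arrays limits the precision.

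All member probe sets are named. For other genes the brightest probe set with 1 symbol stands for the gene, at most 4 called genes per list are given with fold changes, and the 5 genes of highest correlation are named for each pattern. The members and lists, and the genes on them, were chosen with earlier results of these data known. One further list is not reported here. The fit was tested on simulated data. Alternatives changed the pseudocount, filter, scaling, trend, replicate block and arrays in the fit; leaving out the 2 dim arrays was chosen after seeing the data. Promoter windows were read from the RefSeq table and searched for the CArG box.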

Additional observations from a re-analysis of the deposited data

How the results depend on the processing

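Of the 18 called member fold changes, 14 kept their call in each alternative run and 0 changed sign. The other 4 lost it in at least 1: Actg2 with H-RasV12 against GFP (highest limma adjusted p = 0.140), Tpm2 with KSR1 against GFP (0.113), and Actg2 (0.0745) and Cnn2 (0.0998) in the double line against H-RasV12. For H-RasV12 against GFP the number of called members was 0 with the groups compared only, 3 with replicates 2 and 3 alone, 3 without the 2 dim arrays, and 0 to 3 with single arrays left out. For the double line against KSR1 it was 2 with a pseudocount of 1, 2 with the stricter filter, 2 with the replicate block, and 1 to 2 with single arrays left out, where Actg2 was gained; it was 2 with replicates 2 and 3 alone, where Myl9 was gained. For the interaction it was 2 with replicates 2 and 3 alone, 3 without the 2 dim arrays, and 0 to 2 with single arrays left out; no interaction fit exists for the groups compared only. Some uncalled estimates changed sign. Cnn2 with KSR1 against GFP was 0.017 under quantile normalization, 0.084 with replicates 2 and 3 alone, 0.10 without the 2 dim arrays and -0.25 to 0.10 with single arrays left out. Tagln in the double line against KSR1 was 0.021 under quantile normalization and -0.39 to 0.00015 with single arrays left out. The Myl9 interaction was 0.56 ± 0.66 from all arrays and ran from -0.082 to 0.88 with single arrays left out. It fell below 0 only without KSR1 replicate 1. The causes were not tested, and some of these fits also hold fewer arrays. Same-numbered arrays of different lines had residual correlations of -0.02 to 0.511, with 13 of 18 over 0.1, against 6 of 36 differently numbered pairs. All 3 pairs exceeded 0.1 between the double line and KSR1, KSR1 and H-RasV12, and KSR1 and GFP, but not between the other lines, so the numbers were not taken to pair all 12 arrays. In 25 of 36 cases an array correlated best with its own number in another line, a hint from the data rather than the design. The replicate block changed 1 member call, Actg2 in the double line against KSR1 (limma adjusted p = 0.0282). The stricter filter removed Myl9 from the test. Dim probe sets, such as Tagln and Myl9 with KSR1, limit how large a fall can be measured.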
